A study of Homo sapiens with 3 samples.

Results

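The 10 Fanconi anemia (FANC) genes FANCA, FANCB, FANCC, FANCD2, FANCE, FANCF, FANCG, FANCI, FANCL and FANCM were examined in H9 cells, a line of human embryonic stem cells. They were taken by name from the 58051 genes in the deposited counts, of which 19629 are protein-coding in GENCODE release 44. The series has 1 group, which is wild-type H9 cells without treatment, sequenced as total RNA after removal of ribosomal RNA in 3 replicates. All values thus describe 1 cell line in 1 condition, no difference between conditions was tested, and the spread between replicates, which may be technical, is the only error. The cells were grown without feeders in Essential 8 Flex medium on vitronectin. The deposited counts of replicates 1, 2 and 3 summed to 10390984, 12024802 and 8655155. Levels are given in TPM, which divides the reads of a gene by its length and scales each replicate to the same total, so that genes can be compared with each other. The 5 embryonic stem cell markers examined, POU5F1, NANOG, SOX2, LIN28A and DPPA4, had means between 275 and 2576 TPM. The 8 markers of other lineages (PAX6, SOX1, TBXT, MESP1, SOX17, FOXA2, GATA3 and CGA) lay between 0.0645 and 7.54 TPM. For all these markers the length was the union of all annotated exons. The highest of the 8, FOXA2, was at percentile 50.7 of protein-coding genes and above the means of FANCB, FANCC, FANCL and FANCM on that length.

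Fanconi anemia proteins repair DNA interstrand crosslinks, lesions that tie both strands together and block the replication fork. FANCM recognizes the stalled fork and anchors a multisubunit ubiquitin ligase, the core complex, in which FANCL is the catalytic subunit. The core complex attaches ubiquitin to FANCD2 and FANCI, and the modified pair directs nucleases, translesion polymerases and homologous recombination to the lesion. Inherited loss of most of these genes causes bone marrow failure and cancer predisposition, and patient cells are sensitive to crosslinking agents and to endogenous aldehydes.

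All 10 genes were expressed in H9 cells. Each had at least 126 reads in every replicate and 437 (FANCB) to 5597 (FANCD2) reads in all, which together made 19327 reads, or 0.0614% to 0.0633% of the reads of a replicate. The length used matters for these genes. Divided by the union of all annotated exons of a gene, 4 of the 10 genes (FANCD2, FANCF, FANCG and FANCI) were in the class of high expression, the upper of 3 quantiles of expressed protein-coding genes, beside 28.8% of all protein-coding genes. The other 6 were in the medium class, which also holds 28.8%, and none was low or nonexpressed. The median of the 10 genes was 18.7 TPM, against 7.10 TPM over all protein-coding genes and 11.7 TPM over the expressed ones. Divided instead by the length of 1 reference transcript per gene (MANE Select or Ensembl canonical), 5 genes were high, again beside 28.8% of all protein-coding genes. The median was then 27.8 TPM, against 6.73 TPM over all protein-coding genes and 11.4 TPM over the expressed ones. FANCA and FANCL entered the high class on this scale and FANCF left it. Summed over the 10 genes, the level was 232.5 ± 8.38 TPM on the exon union and 375 ± 7.30 TPM on the reference transcripts (SD, n = 3). In bulk RNA, fewer expressing cells and less RNA per cell cannot be told apart.

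**Figure D1:**
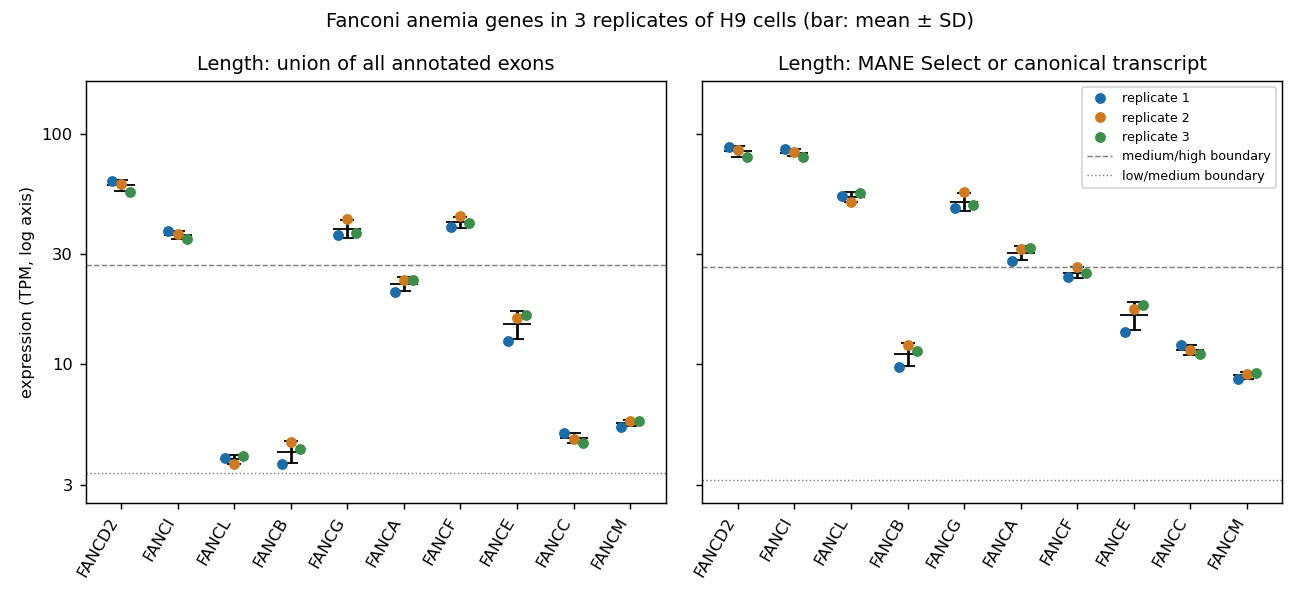
Expression of the 10 Fanconi anemia genes in TPM (log axis), with 1 point per replicate and a bar for the mean ± SD (n = 3), on the exon union length (left) and the reference transcript length (right). The dashed and dotted lines are the class boundaries. FANCD2 was highest in both panels, and FANCL moved from a mean of 3.86 TPM to 53.4 TPM.

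FANCD2 and FANCI form the heterodimer that the core complex ubiquitinates and that then clamps onto DNA, and both genes had the most reads of the group. FANCD2 (ENSG00000144554, GRCh38 chromosome 3, 10026370 to 10101932, plus strand, 44 exons in the reference transcript) had 1937, 2183 and 1477 reads in replicates 1, 2 and 3. These corresponded to 62.8, 60.9 and 56.1 TPM on the exon union, a mean of 59.9 ± 3.41 TPM (SD, n = 3), which was the highest of the 10 genes on every scale examined. FANCI (ENSG00000140525, chromosome 15, 89243945 to 89317261, plus strand, 38 exons) had 1763, 1985 and 1384 reads, or 37.9, 36.7 and 34.9 TPM. The 2 genes did not overlap in their ranges on this scale, and FANCD2 exceeded FANCI 1.64-fold in the geometric mean (log2 ratio 0.71 ± 0.02, SD, n = 3). On the reference transcripts, whose lengths are 5096 and 4733 bp, FANCD2 had 87.9, 85.2 and 79.2 TPM and FANCI 86.2, 83.4 and 79.9 TPM. Their ratio was then 1.02, 1.02 and 0.991 in the 3 replicates, so that the heterodimer partners were level with each other within the spread of either gene. With the longest transcript as length the ratio was 1.16. The exon unions of the pair differ more in length, at 11855 bp for FANCD2 and 17853 bp for FANCI, and whether FANCD2 exceeded FANCI depended on the length used. With 3 replicates, the exact two-sided sign-flip permutation test cannot give a p below 0.25, which it gave on the exon union, and none of the ratios between genes can pass a threshold of 0.05.

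FANCD2 is the only member of the group whose coding sequence was found elsewhere in the genome. Of its 4353 coding bases, 1408 (32.3%) had a copy of at least 95% identity outside the gene. One locus on chromosome 3, 11860129 to 11891580, covered 29.1% of the coding sequence with up to 100% identity and lies at the annotated pseudogene FANCD2P2. The other, at 9988372 to 9993013, covered 5.79%. No read was counted on FANCD2P2 in any replicate, which allows up to 3 reads in each, and the aligned reads that fit more than 1 of these places could have been counted on FANCD2, elsewhere or not at all. The level of FANCD2 is uncertain for this reason. No such copy was found for the coding sequences of the other 9 genes.

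The 250 bases before the annotated start of FANCD2 (RefSeq, GRCh38.p14, chr3:10026187-10026436, plus strand) are shown because the gene had the highest level of the group. Capitals mark the letters CCGGAAG on the opposite strand, the core recognized by ETS factors, which 12.9% of all promoter windows examined hold.

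FANCD2: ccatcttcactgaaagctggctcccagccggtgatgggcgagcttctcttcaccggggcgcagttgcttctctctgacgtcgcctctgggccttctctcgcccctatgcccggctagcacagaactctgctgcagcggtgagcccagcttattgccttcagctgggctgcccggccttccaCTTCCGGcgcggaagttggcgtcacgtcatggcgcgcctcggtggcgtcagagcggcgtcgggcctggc

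FANCL and FANCB belong to the catalytic module of the core complex, in which FANCL is the RING-type E3 ligase and FANCB holds the module together with FAAP100. FANCL (ENSG00000115392, chromosome 2, 58159243 to 58241410, minus strand) had 386, 422 and 338 reads. On the exon union this gave 3.90, 3.67 and 4.01 TPM, the lowest mean of the 10 genes at 3.86 ± 0.173 TPM (SD, n = 3). The annotation lists 156 transcripts for FANCL, whose exons cover 37977 bp in all, while its reference transcript has 1658 bp in 14 exons. This ratio of 22.9 was reached by 6 of the 19629 protein-coding genes, FANCL included, and their median was 1.31. On the reference transcript FANCL had 53.8, 50.6 and 55.7 TPM, with a mean of 53.4 ± 2.55 TPM (SD, n = 3), which was 13.8 times the value on the exon union and the third highest of the group. With the longest transcript, of 8672 bp, it had 12.7 TPM. Read counts per gene do not show which of these transcripts the reads came from, and the place of FANCL among the 10 genes depended on that choice.

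FANCB (ENSG00000181544, X chromosome, 14690388 to 14873255, minus strand), whose loss causes the X-linked form of the disease, had 127, 184 and 126 reads, the fewest of the group. It had 3.67, 4.57 and 4.27 TPM on the exon union and 9.74, 12.1 and 11.4 TPM on the reference transcript. It was thus among the lowest genes on either scale. Against FANCL, its ratio was 0.940, 1.25 and 1.06 on the exon union, where their ranges overlapped. On the reference transcripts it was 0.181, 0.240 and 0.205, and with the longest transcripts 0.459, 0.609 and 0.520. FANCB shares 844 bp of exons with the pseudogene NPM1P9 on the same strand, on which 3, 5 and 6 reads were counted.

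FANCA and FANCG form a further module of the core complex with FAAP20 and support the nuclear localization of the complex. FANCG (ENSG00000221829, chromosome 9, 35073835 to 35080004, minus strand, 14 exons) had 526, 720 and 460 reads, or 36.4, 42.9 and 37.3 TPM on the exon union and 47.6, 56.0 and 49.2 TPM on the reference transcript. Replicate 2 was highest on both scales. FANCA (ENSG00000187741, chromosome 16, 89726683 to 89816977, minus strand, 43 exons) had 661, 867 and 636 reads, or 20.6, 23.3 and 23.3 TPM on the exon union and 28.0, 31.6 and 31.9 TPM on the reference transcript. FANCA was below FANCG in every replicate on both scales, at a log2 ratio of -0.79 ± 0.10 and -0.74 ± 0.10 (SD, n = 3), respectively. With the longest transcripts, the ratio was 1.03 and differed in direction between replicates. The last exons of FANCA lie over ZNF276, a gene on the opposite strand: 2409 bp, or 19.6% of its exon length, are shared. ZNF276 had 219, 283 and 219 reads. If no read of the shared bases had been counted on FANCA, its level would be 27.8 TPM in place of 22.4 TPM, which is past the boundary of the high class at 26.96 TPM.

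FANCC, FANCE and FANCF form the arm of the core complex that contacts the substrate, with FANCF linking it to the other subunits. FANCF (ENSG00000183161, chromosome 11, 22622533 to 22625823, minus strand) has a single exon and a single annotated transcript. It had 339, 437 and 299 reads, or 39.6, 43.9 and 40.9 TPM on the exon union and 23.8, 26.4 and 24.8 TPM on the reference transcript. Its length of 3291 bp is the same on both scales, and its value differed because the lengths of other genes, which set the total, did. FANCE (ENSG00000112039, chromosome 6, 35452338 to 35467104, plus strand, 10 exons) had 153, 225 and 170 reads, or 12.6, 15.9 and 16.4 TPM on the exon union and 13.7, 17.4 and 18.0 TPM on the reference transcript. Replicate 1 was the low one, and FANCE had the largest coefficient of variation of the group. FANCC (ENSG00000158169, chromosome 9, 95099054 to 95426796, minus strand, 15 exons) had 241, 265 and 186 reads, or 5.01, 4.74 and 4.54 TPM on the exon union and 12.1, 11.5 and 11.1 TPM on the reference transcript. Within this arm, the order FANCF over FANCE over FANCC was seen in every replicate on both scales. The ratio of FANCC to FANCF was 0.115 on the exon union and 0.462 on the reference transcripts, and that of FANCE to FANCF 0.359 and 0.651. The subunits of this arm thus differed in RNA level by more than the spread between replicates on both scales, though by less on the second.

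FANCM, a DNA translocase of the helicase family and the anchor of the core complex (ENSG00000187790, chromosome 14, 45135930 to 45200890, plus strand, 23 exons), had 265, 326 and 239 reads. It had 5.34, 5.65 and 5.65 TPM on the exon union and 8.60, 9.10 and 9.16 TPM on the reference transcript, the lowest mean of the group on the latter, at 8.95 ± 0.308 TPM (SD, n = 3). Its reference transcript, of 7131 bp, is the longest of the 10, so that its reads, more than those of FANCB, FANCC or FANCE, gave a lower level. No exon base of FANCM is shared with another gene. The bases before its start (chr14:45135680-45135929, plus strand) are shown as the promoter of the lowest gene on the reference transcripts. Capitals mark the letters CCAAT on either strand, a common proximal promoter element, which 34.9% of all windows hold.

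FANCM: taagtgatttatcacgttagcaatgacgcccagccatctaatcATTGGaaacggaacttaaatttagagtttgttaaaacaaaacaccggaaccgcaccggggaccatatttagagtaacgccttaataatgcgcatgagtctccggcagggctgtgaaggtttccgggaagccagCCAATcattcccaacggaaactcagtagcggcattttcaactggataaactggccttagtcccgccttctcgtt

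Of the 9 pairs of neighbors in the order of mean TPM, 5 did not overlap in their ranges over the 3 replicates on the exon union and 6 on the reference transcripts. On the exon union, FANCF, FANCG and FANCI followed FANCD2 at 41.5, 38.9 and 36.5 TPM. FANCG overlapped with both others, whereas FANCF was above FANCI in every replicate, without overlap. FANCA and FANCE followed, each apart from its neighbors, at 22.4 and 15.0 TPM. FANCM was next at 5.55 TPM and stood apart from FANCC at 4.77 TPM, whereas FANCC, FANCB and FANCL overlapped in turn. On the reference transcripts, FANCD2 and FANCI overlapped at the top (84.1 and 83.2 TPM), FANCL and FANCG followed at 53.4 and 50.9 TPM and also overlapped, and FANCA, FANCF and FANCE each stood apart at 30.5, 25.0 and 16.4 TPM. FANCC and FANCB overlapped at 11.6 and 11.1 TPM, above FANCM. The highest gene exceeded the lowest 15.5-fold on the first scale and 9.40-fold on the second. The ranks of FANCA, FANCB, FANCC and FANCD2 were the same on both, and those of FANCL and FANCF moved most, by 7 and 4 places.

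**Figure D2:**
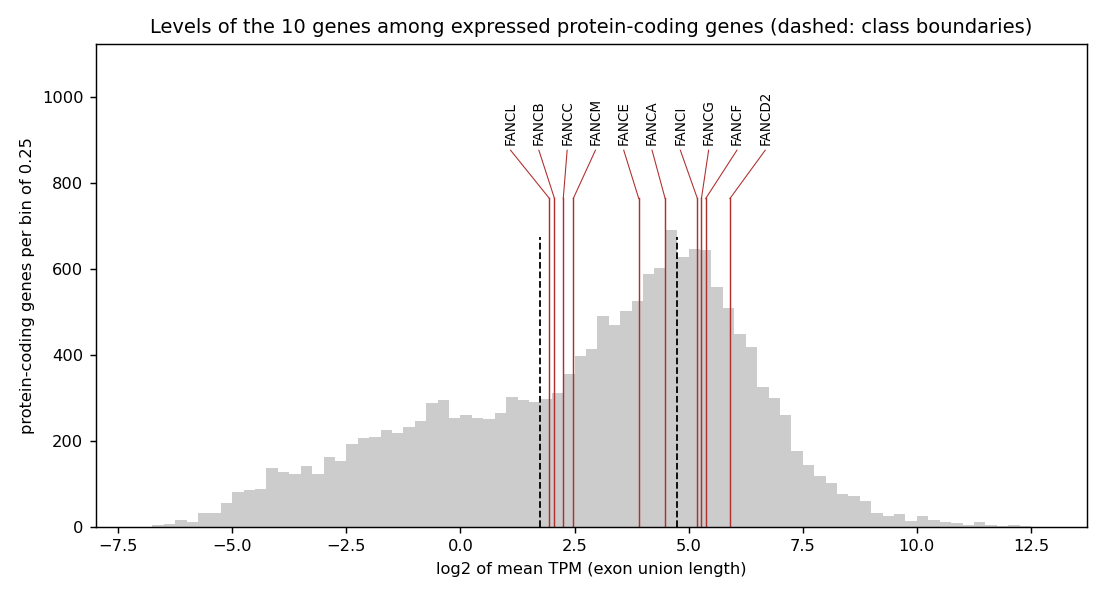
Distribution of log2 mean TPM over protein-coding genes at or above 0.01 TPM (exon union length, bins of 0.25), with a red line for each Fanconi anemia gene and dashed lines at the class boundaries of 3.35 and 26.96 TPM. FANCL, FANCB, FANCC and FANCM lie close above the lower boundary, from 3.86 to 5.55 TPM, and 4 genes lie above the upper one.

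Among all protein-coding genes, FANCD2 was at percentile 85.4 on the exon union and 89.9 on the reference transcripts. FANCL moved from percentile 43.7 to 83.9 and FANCI from 76.9 to 89.8, while FANCE stayed at 60.5 and 62.6. Some genes were near a class boundary, and with each replicate classified alone, where the lower boundary was at 4.23, 4.32 and 4.75 TPM in place of 3.35 TPM, FANCL was low in all 3 replicates. FANCB was then low in replicates 1 and 3, and FANCC in replicate 3. FANCD2, FANCF, FANCG and FANCI were high, and FANCA, FANCE and FANCM medium, in every replicate.

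The spread between replicates was small for most of the group. The coefficient of variation of TPM had a median of 5.50% over the 10 genes, against 5.03% over all high genes and 8.41% over all medium genes, and ran from 3.23% for FANCM to 13.9% for FANCE. The counting error expected from the mean count of each gene had a median of 5.20%. In 7 of the 10 genes the observed value was above the counting error, as it was in 4064 of the 5656 high and 3157 of the 5656 medium protein-coding genes. Among the 10, it exceeded the counting error by the most in FANCD2 (5.70% against 2.32%), FANCG (8.98% against 4.19%) and FANCE (13.9% against 7.40%). It was below it in FANCC, FANCL and FANCM. Replicate 3 of this series differs from the others in the content of G and C of the exons of the genes that are higher in it. Against the mean CPM of replicates 1 and 2, the log2 ratio of replicate 3 ran from -0.11 for FANCD2, with 43.4% G and C in its exons, to 0.23 for FANCE, with 54.2%. Over the 10 genes, which share their libraries, Spearman's rho between both measures was 0.14 (Pearson's r 0.14), against 0.41 (0.45) over 9946 genes with at least 100 reads in every replicate. The part of base composition in the spread of single genes was not tested.

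**Figure D3:**
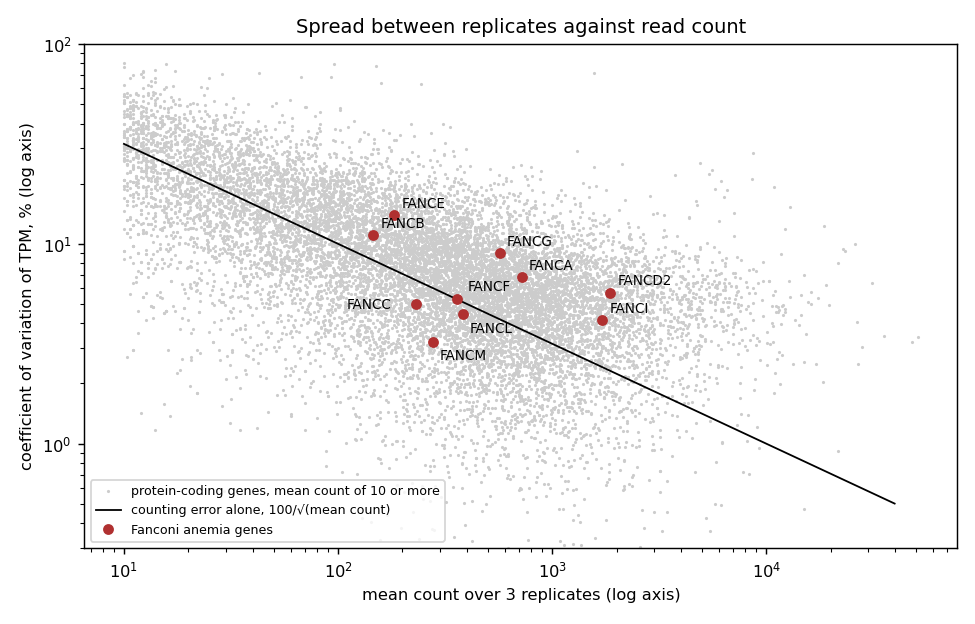
Coefficient of variation of TPM between the 3 replicates against the mean count (both log axes) for protein-coding genes with a mean count of 10 or more (grey) and the 10 Fanconi anemia genes (red), with the counting error as a black line. FANCM, FANCC and FANCL lie under the line, and FANCE and FANCB, with the fewest reads, have the largest values.

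Most members share little of their exon union with other genes. No exon base of FANCE or FANCM is shared, and for FANCC, FANCD2, FANCG, FANCI and FANCL the share of the exon union was between 1.67% and 4.05%. For FANCL, 634 bases are shared, beside a reference transcript of 1658 bp, and how many of them lie in that transcript was not computed. FANCI overlaps POLG, the mitochondrial DNA polymerase, by 458 bp at its end, and FANCL overlaps VRK2 by 572 bp, both on the opposite strand. POLG had 846, 884 and 696 reads and VRK2 408, 460 and 328. FANCD2 shares 359 bp with FANCD2OS on the opposite strand, on which 170, 180 and 130 reads were counted. FANCF shares 315 bp, or 9.57% of its exon, with GAS2, which had 12, 2 and 5 reads. The use of strand in the counting is not given in the sources used here, so reads of the shared bases cannot be assigned.

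The remaining subunits of the core complex and its E2 enzyme ranged more widely. Of 6 genes, 3 were in the high class on the exon union, beside 28.8% of all protein-coding genes. UBE2T, the E2 that works with FANCL, had 73.3, 68.5 and 68.4 TPM, and CENPX, a histone-fold partner of FANCM, had 95.4, 87.0 and 97.1 TPM. FAAP100, the partner of FANCB and FANCL, had 26.6, 26.0 and 36.3 TPM and was high in replicate 3 only. Its exons have 64.0% G and C. FAAP20, the partner of FANCA, had 8.77 ± 0.668 TPM (SD, n = 3) on the exon union of 10916 bp and 79.5 ± 6.36 TPM on its reference transcript of 727 bp, so that FANCA was 2.55 times FAAP20 on the first scale and 0.384 times on the second. FAAP24, which binds FANCM, had 41, 74 and 41 reads, or 7.15 ± 1.63 TPM. CENPS, the histone-fold partner of CENPX, had 20, 16 and 14 reads and 3.68 ± 0.688 TPM, the lowest of the list, but 65.0% of its exon length is shared with other genes.

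USP1, which removes ubiquitin from FANCD2 together with WDR48, had 138, 146 and 135 TPM on the exon union, above FANCD2 in every replicate (ratio 2.33). On the reference transcripts, USP1 had 90.6 ± 3.61 TPM (SD, n = 3), a ratio to FANCD2 of 1.01, 1.11 and 1.11. WDR48 had 38.8 ± 2.64 TPM and was below USP1 on every scale. Among the nucleases and their scaffold that act on the crosslink, ERCC1 (46.0 TPM) and EME1 (33.7 TPM) were in the high class, and their catalytic partners ERCC4 (5.12 TPM) and MUS81 (16.2 TPM) in the medium class, with FAN1 at 10.99 TPM and the scaffold SLX4 at 14.7 TPM. Genes on the opposite strand share 28.6% of the exon length of ERCC1, 20.2% of WDR48, 16.4% of EME1, 14.05% of ERCC4 and 14.13% of MUS81. For FAN1 the share is 8.96% and for SLX4 3.26%. Reads of these bases cannot be assigned. In all, 4 of the 8 genes of this list were high and 4 medium, classes that each hold 28.8% of all protein-coding genes.

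Of 8 Fanconi anemia genes that act after FANCD2 and FANCI, 4 were high and 4 medium on the exon union. Each of these classes holds 28.8% of all protein-coding genes. RFWD3, a ubiquitin ligase, and MAD2L2, a subunit of a translesion polymerase, were highest, at 116 ± 5.33 and 116 ± 4.35 TPM (SD, n = 3). On the reference transcripts they were apart, with 91.7 TPM for RFWD3 and 360 TPM for MAD2L2. Of the exon length of MAD2L2, 17.2% is shared with genes on the opposite strand, and reads there cannot be assigned. XRCC2 had 34.8 TPM and PALB2, the partner of BRCA2 in homologous recombination, 28.7 TPM. BRCA1 had 25.1 TPM and BRCA2 23.9 TPM, both in the medium class, with the helicase BRIP1 at 11.5 TPM. BRCA1 was high on the reference transcripts, at 30.3 TPM. This made 5 of the 8 genes high on that scale, beside 28.8% of all protein-coding genes. RAD51C was lowest at 3.92 TPM on an exon union of 16404 bp, and had 15.1 TPM on its reference transcript of 2562 bp. Aldehyde-removing enzymes, which act on the source of such lesions, were at different levels: ADH5, which oxidizes the glutathione adduct of formaldehyde, had 158, 152 and 139 TPM, ESD, the next enzyme of that pathway, had 54.3 TPM, and ALDH2, the acetaldehyde dehydrogenase, had 9.76, 9.86 and 9.78 TPM. Over the 25 genes of the 4 lists, 13 were high (28.8% of all protein-coding genes are), 12 were medium and none was low, with a median of 28.7 TPM beside 18.7 TPM for the 10 FANC genes. On the reference transcripts 15 were high, again beside 28.8% of all protein-coding genes. The medians then lay close together, at 28.7 TPM for the 25 genes and 27.8 TPM for the 10.

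**Figure D4:**
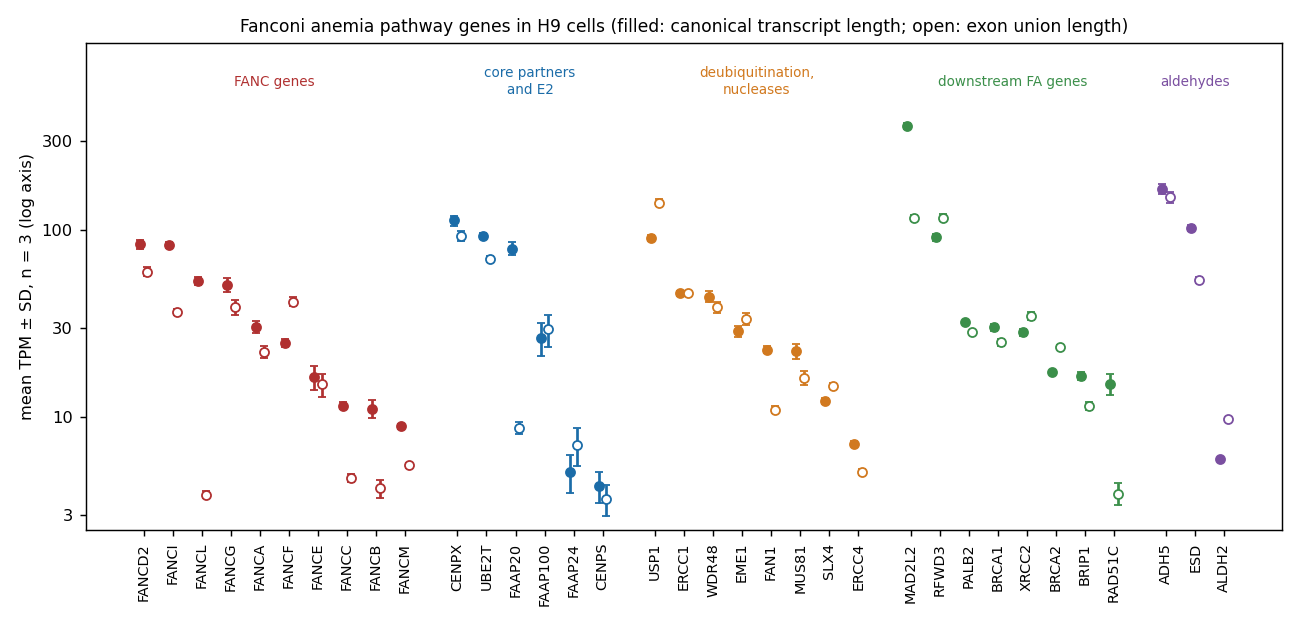
Mean TPM ± SD (n = 3, log axis) of the 10 FANC genes and the 25 other pathway genes by list, on the reference transcript length (filled) and the exon union length (open). FANCL, FAAP20 and RAD51C show wide gaps between both lengths. CENPS had 4.3 TPM on the reference transcript and 3.7 TPM on the exon union, and FAAP24 5.1 and 7.2 TPM, in the medium class on both.

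The promoter windows of the group were compared with those of the 15182 protein-coding genes that had a window, from 250 bases before to 50 after the start in RefSeq. Motifs are counted per gene in the group and per window in the background. Windows were found for 9 of the 10 genes (all but FANCI), with 2 for FANCC. Their median content of G and C was 68.7%, against 62.3% over 21390 windows, and the median ratio of observed to expected CpG was 0.934, against 0.742. None held the letters TATAAA, which 9.51% of all windows hold, and 7 of the 9 genes held GGGCGG, which 56.8% hold. CCAAT was found in 3 of the 9 genes, beside 34.9% of all windows, and CCGGAAG in 1, beside 12.9%. Motifs were sought on both strands, and TTCCCGC, a form of the site that E2F factors bind in genes of the S phase, was found in 5 of the 9 genes (FANCC, FANCD2, FANCE, FANCG and FANCL), beside 8.26% of all windows. At none of these places did the letters overlap another of the motifs sought. A match is a description of these windows and does not show binding. The 6 places are shown with 11 bases on either side, read on the strand of the gene, with the matching letters in capitals, which read GCGGGAA where the match is on the opposite strand.

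FANCC, chr9:95317737-95317765, minus strand: tcgtcggaattTTCCCGCgacgccgcggg

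FANCC, second start, chr9:95317352-95317380, minus strand: ggcgagaggggTTCCCGCcggcgcagggc

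FANCD2, chr3:10026424-10026452, plus strand: cgtcgggcctgGCGGGAAagtcgaaaact

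FANCE, chr6:35452345-35452373, plus strand: tttccgacagcGCGGGAAcggctgcggct

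FANCG, chr9:35080009-35080037, minus strand: cctcggtggaaGCGGGAAcccaggaggac

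FANCL, chr2:58241407-58241435, minus strand: cctccaggatcTTCCCGCcaaggctgggg

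The match began 2 bases before the start in FANCD2, 45 and 115 bases before in FANCC, 84 before in FANCG and 99 before in FANCL, and at base 19 after the start in FANCE. On the exon union, the genes with the match ranked 1 (FANCD2), 3 (FANCG), 6 (FANCE), 8 (FANCC) and 10 (FANCL) by level. Those without it ranked 2 (FANCF), 5 (FANCA), 7 (FANCM) and 9 (FANCB). On the reference transcripts, the ranks were 1 (FANCD2), 3 (FANCL), 4 (FANCG), 7 (FANCE) and 8 (FANCC) with the match. Without it they were 5 (FANCA), 6 (FANCF), 9 (FANCB) and 10 (FANCM). A relation between the letters and the level was not tested.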

How the data were processed

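RNA-seq counts of 3 replicates of H9 cells were analysed. Per the labels and the methods of the study, the authors trimmed reads with Trim Galore 0.4.4 and aligned them to GRCh38 with TopHat2 2.1.1. The deposited values are whole-number counts of reads per gene, without normalization. Which tool counted the reads, on which annotation and with which strand setting, is not given in the sources used here. The TPM values that the study made with Cufflinks 2.2.1 were not used here.

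Identifiers were joined to GENCODE 44 (98.1% matched). Counts were divided by the length of the exon union or of the MANE Select or canonical transcript, scaled to TPM over matched genes, with no filter on low counts, and averaged. Genes below 0.01 TPM were taken as nonexpressed and other protein-coding genes divided into 3 quantiles. Percentiles are ranks of the mean among 19629 protein-coding genes. Ratios were taken within replicates, with an exact sign-flip permutation test. Copies were sought with blastn 2.17.0 (megablast, at least 95% identity over 60 bases). Totals of 8655155 to 12024802 counts limit precision. The bound on reads given for FANCD2P2 covers counting error only, whereas each SD is taken over the 3 replicates. R 4.3.3, edgeR 4.0.16 (TMM), DESeq2 1.42.0 (size factors), Python 3.11.15, numpy 2.4.6, pandas 2.3.3 and scipy 1.17.1 were used. The TPM and class steps were tested on data simulated with the same exon union lengths, which checks the code and cannot bear on the choice of length. The genes and pathway lists were chosen by name, with earlier results of these data known, and all genes of the lists are named, except 1 downstream gene that is not reported here and was left out of the counts; the promoter motifs, the search for copies and the length without shared exon bases were chosen after seeing the data.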

Additional observations from a re-analysis of the deposited data

How the results depend on the processing

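The number of FANC genes in the high class, 4, stayed between 3 and 6 under the alternatives run. The median of the 10 genes, 18.7 TPM, was 25.7 TPM with the longest transcript as length, 27.8 TPM with the MANE Select or canonical transcript, 21.4 TPM with the exon bases shared with no other gene (chosen after seeing the data) and 35.8 CPM without a length. A shorter length raises the level of a gene relative to genes whose length is unaltered. The log2 ratio of FANCD2 to FANCI, 0.71, was 0.22 with the longest and 0.016 with the canonical transcripts. The median coefficient of variation, 5.50%, was 12.1% with counts thinned to 10%, which leaves fewer reads, and 4.21% to 6.44% with 1 replicate left out, the lowest without replicate 1. With class boundaries over all genes, 21 in place of 13 other pathway genes were high, and with a threshold for nonexpressed genes of 1 TPM, 9 were. The share of all protein-coding genes that these settings place in the high class was not computed. Single genes moved by more than their SD in 10 of 10 cases with the longest transcript, 9 of 10 with the canonical one, 2 of 10 without mitochondrial genes in the total, 1 of 10 with thinned counts and in no case after rescaling by TMM or DESeq2 factors. No paired analysis was possible because there is only 1 group. Depth limits FANCB most, with 126 to 184 reads in a replicate.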
